A study of Bos taurus with 43 samples.

Results

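Cytosolic ribosomal protein genes were followed across 43 single-colour arrays of the biceps brachii, a forelimb muscle, from cattle. Probes were taken by the wording of the array's own description: it had to read ribosomal protein L, ribosomal protein S or ribosomal protein, large, and probes of mitochondrial proteins, kinases and pseudogenes were left out. This gave 89 probes for 88 genes, of 21475 probes for 19845 names on the array. Of the 89, 45 are for large-subunit proteins, 32 for small-subunit proteins and 11 for paralogs or predicted copies. The last is for RPS19BP1, a binding partner of RPS19 that is not itself a ribosomal protein. The wording alone decided which probes were taken, though earlier results of these data were known when the family was chosen.

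All muscle came from male animals, and total RNA was labelled with Cy3. The 4 suspected animals (S21, S54, S56 and S57) were labelled as suspected of corticosteroid treatment, and had altered thymus histology and dexamethasone in urine. The 21 unknown animals were commercial cattle whose treatment was not known. Both kinds were beef cattle of 12 to 24 months, mostly Charolais, Limousine or their crosses, drawn from 10 batches, vaccinated and treated against parasites. The cross-breed controls were 5 Charolais × Limousine bulls of 18 months (K7, K8, K10, K11 and K12), and the Holstein controls were 13 animals of 13 to 18 months (library names starting with C). Both control sets came from earlier controlled experiments, and the labels give them only as negative controls. Each array is 1 animal.

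The cytosolic ribosome is the particle that translates nuclear-encoded mRNA into protein, and it is built from a small subunit, which holds the mRNA, and a large subunit, which joins the amino acids. Each subunit needs its proteins in nearly equal number, so their genes are expressed together and strongly in nearly every cell. Their mRNAs start with a run of pyrimidines, the terminal oligopyrimidine (TOP) tract, through which the kinase mTOR sets how well they are translated. In skeletal muscle the amount of ribosomes is part of what sets the rate of protein synthesis, and glucocorticoids are known to lower that rate.

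Levels below are log2 array signals after normalization between arrays, so a difference of 1 is a 2-fold difference. Changes are given between animals for the same probe, and since probes bind with different strength, signals of different probes do not rank the amounts of their mRNAs. Probes for this family can also bind near-identical copies and processed pseudogenes of the same gene, so each name is uncertain to that extent. Signal exceeded the scanner's background test on all 43 arrays for 81 of the 89 members, and all 89 entered the tests. The paralogs RPL10L and RPL22L1 were well above background on 27 and 31 arrays, and RPS27A on 40. The share of spots well above background ran from 40.21% (animal 79) to 97.29% (animal 50), and 13 members were saturated on 1 array, that of animal 76. The muscle marker list was well above background on every array for all 13 of its probes, and MB, the oxygen-storage protein myoglobin, had its brightest signal in every group. In whole muscle, fewer cells of a type and less RNA per cell cannot be told apart.

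Scanning dates divide the arrays into 3 periods. Period 1 holds only the 5 cross-breed controls, and no other group shares a slide, a scan day or a scanner with them, so in every comparison with these controls the scan and the group cannot be told apart. Period 2 holds 11 unknown animals on 3 slides. Period 3 holds the other 10 unknown animals, the 4 suspected animals and the 13 Holstein controls, on the same scanner as period 2. The unknown animals are therefore given by period below. That split follows the scan date and was added after the values had been seen. Which batch each animal came from is not in the labels, so scanning period and origin cannot be told apart.

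After normalization between arrays the family as a whole moved little, but the size and sign of its shift depended on the normalization. The members' median change in the suspected animals against the cross-breed controls was 0.28 here. It was 0.58 with scaling to the 75th percentile and -0.17 with loess on pairs of arrays. With each probe set to its own mean over the 43 arrays, the median of the 89 probes lay between -0.30 and -0.17 in the 5 cross-breed controls, which is below all 4 suspected animals (-0.09 to 0.19) and all 13 Holstein controls (-0.15 to 0.45). It lay between -0.27 and 0.07 in the unknown animals of period 2 and between -0.06 and 0.36 in those of period 3, so those ranges overlapped. The members also differed from each other more in some arrays than in others. The interquartile range of the 89 centred values was 0.65 to 1.02 in period 2, and 0.30 to 0.64 on the other 32 arrays. Over all arrays the median SD of the members was 0.41, against 0.62 for all 16360 probes tested, with 59 members below 0.5 and 7 above 1. These SDs were not matched for signal strength, and the members are mostly bright, with a median level of 15.09.

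**Figure D1:**
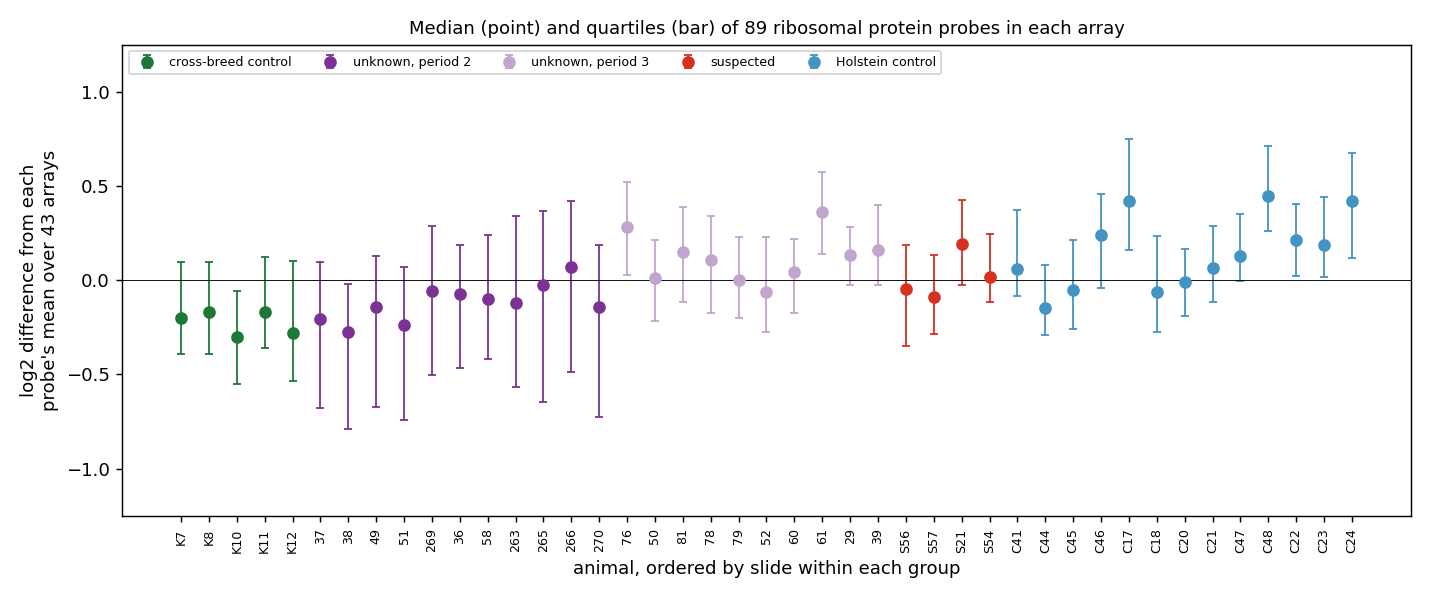
Median (point) and quartiles (bar) of 89 cytosolic ribosomal protein probes on each of the 43 arrays, by group. Values are in log2 units after normalization between arrays, relative to each probe's mean over all arrays. The 5 cross-breed controls lie between -0.30 and -0.17, and the bars are longest in the unknown animals of scanning period 2.

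Among the steadiest members were RPL6 and RPL7A, both large-subunit proteins, with SDs of 0.16 and 0.18 over the 43 arrays. RPL6 stayed between 16.09 and 16.84 in all animals, and its changes in the comparisons below ran from -0.10 to 0.05, none past the test. RPS14 and RPL21, taken as 2 of the brightest probes, were at 16.86 to 17.63 and 16.32 to 17.45 over all animals. Among the least steady were RPL10L and RPL34, with SDs of 2.54 and 1.93.

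RPL34, a large-subunit protein, and RPL4, a large-subunit protein that lines the tunnel through which the new chain leaves, divided the unknown animals into separate ranges by scanning period. For RPL34 the lowest, median and highest levels were 8.28, 8.95 and 9.43 in the 11 animals of period 2, and 13.06, 13.23 and 13.57 in the 10 of period 3. The Holstein controls (12.69, 13.15 and 13.83) and the suspected animals (13.62 in S21, 13.29 in S54, 13.17 in S56 and 13.13 in S57) lay with period 3, and the cross-breed controls at 11.94 (K7), 11.79 (K8), 11.76 (K10), 11.15 (K11) and 11.58 (K12) lay between. No animal fell between 9.43 and 11.15. RPL34 rose by 4.44 ± 0.14 (log2, SE) from period 2 to period 3, a 21.8-fold difference with an adjusted p of 1.67e-15 (limma, Benjamini-Hochberg over all 16360 probes).

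RPL4 reached 10.31, 11.02 and 11.43 (lowest, median, highest) in period 2 against 13.36, 13.78 and 14.03 in period 3. The suspected animals, at 13.94 (S21), 13.34 (S54), 13.68 (S56) and 13.73 (S57), the cross-breed controls, at 13.67 (K7), 13.64 (K8), 13.40 (K10), 13.27 (K11) and 13.22 (K12), and the Holstein controls, from 12.61 to 14.36, were all above period 2. Its change was 2.76 ± 0.13, or 6.75-fold (adjusted p = 5.91e-13, limma). The division held on every slide. RPL34 was 8.35 to 8.75, 8.99 to 9.43 and 8.28 to 9.09 on the 3 slides of period 2, and between 13.06 and 13.57 on all 5 slides of period 3. On the same slides RPL4 stayed at or below 11.43 and then at or above 13.36.

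**Figure D2:**
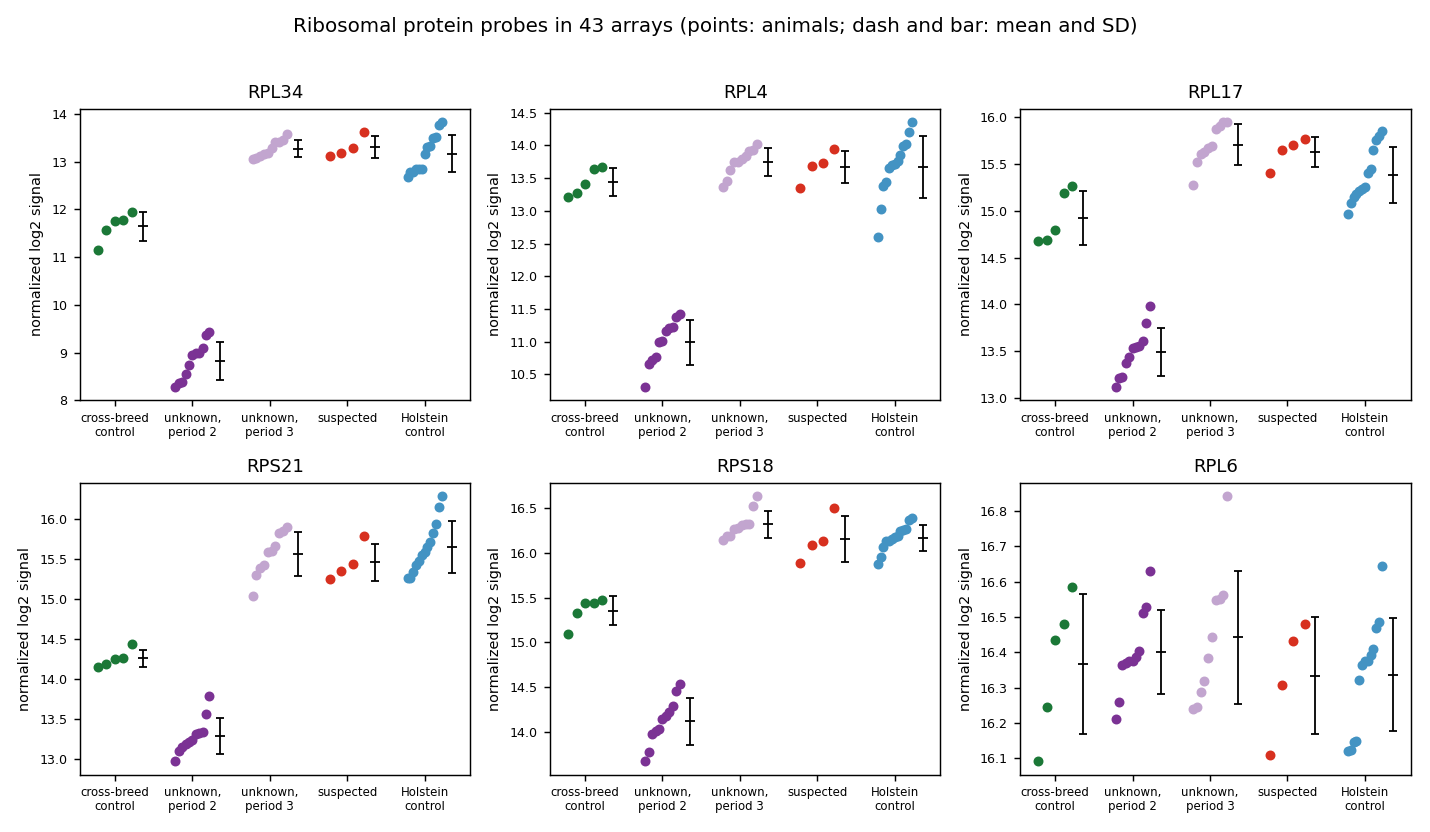
Normalized log2 signal of RPL34, RPL4, RPL17, RPS21, RPS18 and RPL6 in each animal, by group, with the unknown animals divided by scanning period (points, 1 animal each; dash and bar, mean and SD). For every gene but RPL6 the 11 animals of period 2 lie below all other animals, while RPL6 stays between 16.09 and 16.84 throughout.

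Across the family, 18 of 89 members were called higher in period 3 than in period 2 and 3 lower, where a call needs an adjusted p under 0.05 and at least a 2-fold change. That is 20.2% and 3.37% of the members, beside 13.9% higher and 10.7% lower among all probes tested, and 23.6% in either direction beside 24.7% of all probes. At any fold 43 members passed higher and 24 lower (26.1% and 29.5% of all probes), and the median change was 0.23 for the members and -0.04 for all probes. For 32 members every animal of period 3 was above every animal of period 2, which held for 6.23% of all probes, and 4 members had the opposite order (5.45% of all probes). The median is not steady, since it was -0.18 when the arrays were normalized in pairs and 0.00 with quantile normalization (18 higher and 7 lower), whereas RPL34, RPL4 and RPS21 were called under all 13 other settings tried. Added control RNA had a mean raw log2 signal of 7.42 to 8.85 in animals 29, 39, 52, 61 and 76 of period 3, against 11.49 to 13.04 in the other 5. Without those 5 animals 17 members were higher and 6 lower, beside 15.6% and 12.3% of all probes, with a median of 0.17.

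The called members came from both subunits. Of 45 large-subunit probes 7 were higher and 1 lower, and of 32 small-subunit probes 8 were higher and 2 lower, beside 13.9% and 10.7% of all probes. RPL17, which also lines the exit tunnel, ran from 13.12 to 13.99 in period 2 and from 15.27 to 15.95 in period 3, a change of 2.21. RPS21, a small-subunit protein, had levels of 12.98, 13.24 and 13.79 (lowest, median, highest) in period 2 and 15.04, 15.59 and 15.91 in period 3, with a change of 2.27 ± 0.12 (adjusted p = 1.89e-12, limma). RPS18, a protein of the small subunit's head, ran from 13.67 to 14.54 and from 16.15 to 16.63, a change of 2.20. The further members higher were RPS4X at 1.79, RPL27A at 1.77, RPSA, which is also known as the laminin receptor, at 1.496, RPL12 at 1.47, RPS7 at 1.36, RPS26 at 1.34, a predicted RPS3A-like copy at 1.31, RPL36A at 1.24, RPS3A at 1.15, RPL36AL at 1.098 and RPS2 at 1.09.

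RPL22L1, a paralog that can take the place of RPL22, was not well above background on any array of period 2 (1.33 to 2.86) and ran from 3.28 to 6.56 in period 3. Its level there was at least 7.17-fold higher (adjusted p = 1.32e-07, limma), a bound that takes, on each array of period 2, the higher of the probe's own signal and the weakest signal of any probe well above background there. With normexp background correction its change was 0.34 and it was not called. For 13 members every animal of period 2 was lower than all 32 other animals, beside 2.2% of all probes tested. Among them were RPL4, RPL5, RPL12, RPL17, RPL22L1, RPL34, RPS4X, RPS7, RPS18, RPS21, RPS25 and RPS3A-like. RPL5, which carries the smallest rRNA into the large subunit, was among them with a change of only 0.89 (adjusted p = 9.89e-08, limma).

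The members lower in period 3 were RPS27A, RPL28 and RPS27. RPS27A, made as a fusion of ubiquitin to a small-subunit protein, ran from 4.79 to 7.52 (median 6.01) in period 2 and from 3.27 to 5.24 (median 4.48) in period 3, so the ranges overlapped, and its change was -1.85 ± 0.35 (adjusted p = 0.00015, limma). Within period 2 the 5 animals numbered 263 to 270 stood at 6.99 to 7.52, and the other 6 at 4.79 to 6.01. RPL28, a large-subunit protein, ran from 5.92 to 7.12 (median 6.30) and from 4.84 to 5.49 (median 5.22) with no overlap, and changed by -1.19 ± 0.15 (adjusted p = 9.07e-07, limma). RPS27, a zinc-binding small-subunit protein, changed by -1.01 ± 0.19 (adjusted p = 9.45e-05, limma) and was under the 2-fold limit without animal 79 (-0.97), with scan day as a random block (-0.97) and with normexp (-0.81). Signals of RPS27A and RPL28 are low on this array, and with another background correction (normexp) their changes were -0.58 and -0.44 and neither was called.

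**Figure D3:**
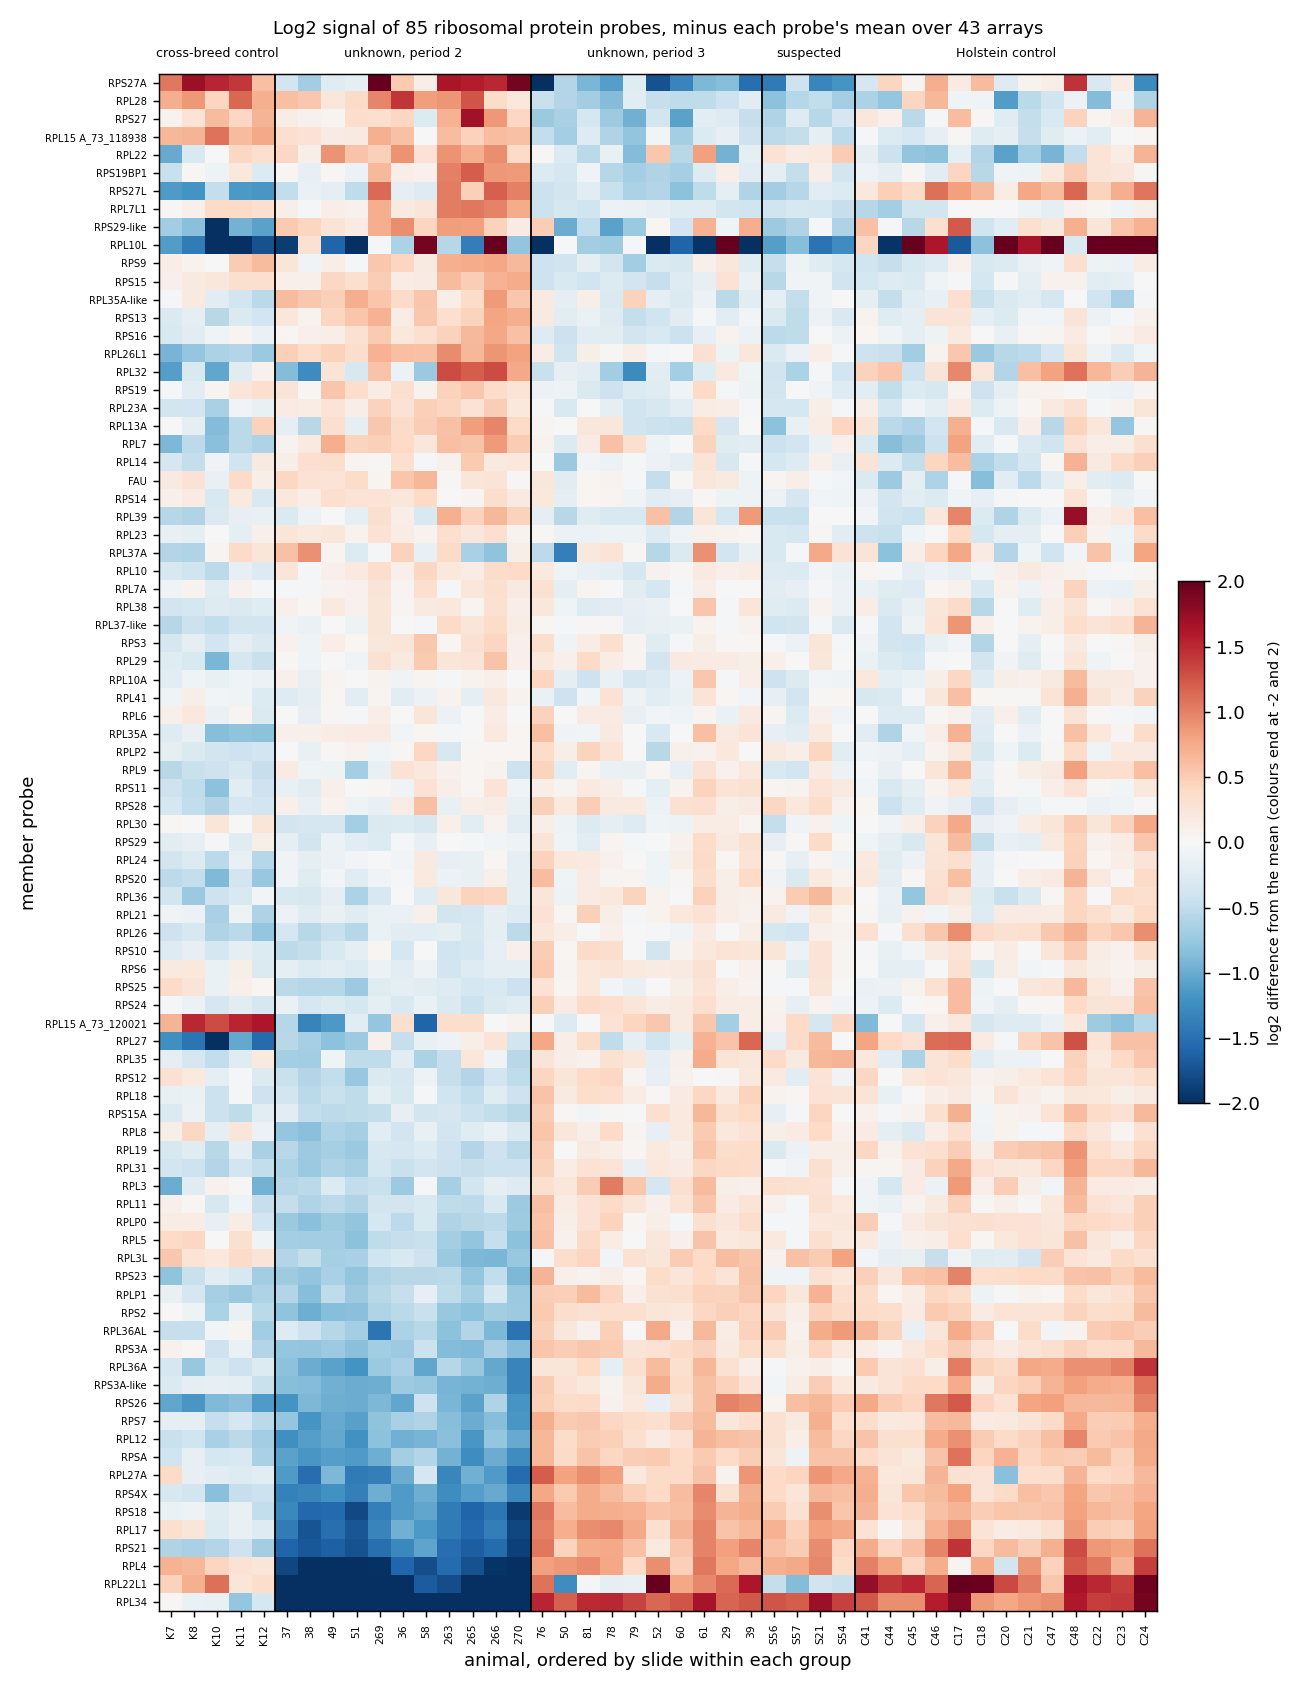
Log2 signal of 85 of the 89 member probes (rows, ordered by the change between scanning periods of the unknown animals) on 43 arrays (columns, by group), relative to each probe's mean over all arrays, with colours ending at -2 and 2. The rows of RPL34 and RPL4 are lowest in the 11 unknown animals of period 2, and that of RPL28, near the other end, is above its mean in those animals and in the cross-breed controls.

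The suspected animals against the cross-breed controls sets animals with signs of treatment beside untreated Charolais × Limousine bulls. Of the 89 members 4 were called higher and 5 lower, or 4.49% and 5.62%, beside 14.4% and 13.8% of all probes tested. With normexp background correction 10 were higher and 2 lower, beside 4.85% and 3.44% of all probes. Without the 2-fold limit 33 members were higher and 9 lower (37.1% and 10.1%), beside 25.5% and 26.3% of all probes. The median change was 0.28 for the members and -0.03 for all probes. The members' median was 0.58 with scaling to the 75th percentile, -0.17 with loess on pairs of arrays and 0.17 without S21. For 29 members all 4 suspected animals were above all 5 controls (21.7% of all probes), and for 9 they were below (21.6%). Other ways of putting the arrays on a common scale gave 16 members higher and 4 lower (75th percentile, with 28.3% of all probes called), 12 and 6 (loess on pairs, 39.9%), and 0 and 17 (no normalization, 60.4%). Without normalization all probes shifted by -1.08 and the members by -0.61.

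RPL27, a large-subunit protein, had the largest rise. Its levels were 10.17, 9.53, 9.37 and 9.93 in S21, S54, S56 and S57, above all of the cross-breed controls at 8.31 (K7), 8.08 (K8), 7.33 (K10), 8.51 (K11) and 7.996 (K12), and the change was 1.70 ± 0.25 (adjusted p = 0.000344, limma). RPL34 changed by 1.66 ± 0.19 (adjusted p = 6.13e-05, limma), with the levels given above and no overlap. RPS26, which sits at the exit of the mRNA channel, was at 12.94 (S21), 12.78 (S54), 12.33 (S56) and 12.87 (S57) against 11.23 (K7), 11.10 (K8), 11.38 (K10), 11.44 (K11) and 11.13 (K12), again apart, with a change of 1.47 ± 0.16 (adjusted p = 5.34e-05, limma). RPS21 was at 15.79 (S21), 15.26 (S54), 15.44 (S56) and 15.36 (S57) and at 14.16 to 14.44 in the controls, a change of 1.20 ± 0.15 (adjusted p = 0.000102, limma). In a fit of all 43 arrays together, in which the unknown animals set the spread, RPL34 (adjusted p = 0.243), RPS21 (0.103) and RPL22L1 (0.297) were not called, and without normalization the same 4 risers had changes of 0.31 to 0.55 and were not called.

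RPS27A fell furthest, with 4.17 (S21), 4.31 (S54), 4.08 (S56) and 5.06 (S57) against 6.08 (K12) to 7.19 (K8) in the cross-breed controls. The groups did not overlap, and the change of -2.33 ± 0.27 is a 5.04-fold lower level (adjusted p = 6.79e-05, limma). RPL28 was at 5.21 (S21), 5.02 (S54), 4.88 (S56) and 5.13 (S57) against 6.13 to 6.85, a change of -1.42 ± 0.17 (adjusted p = 7.57e-05, limma). RPL22L1 was at 4.12 (S21), 4.07 (S54), 4.05 (S56) and 3.66 (S57) against 4.77 to 5.62, a change of -1.12 ± 0.20 (adjusted p = 0.000935, limma), and of -0.99, under the 2-fold limit, without K10. With scaling to the 75th percentile it changed by -0.23 and was not called. With normexp background correction RPS27A, RPL28 and RPL22L1, all dim probes, changed by -0.80, -0.67 and -0.24 and none was called.

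RPL15, a large-subunit protein, has a pair of probes, and both fell. Probe A_73_118938 read 12.66 (S21), 12.33 (S54), 12.34 (S56) and 12.38 (S57) against 13.49 to 13.95 in the cross-breed controls, a change of -1.20 ± 0.15 (adjusted p = 0.000106, limma), and of -0.72, under the 2-fold limit, with loess on pairs. Probe A_73_120021 read 9.11 (S21), 9.86 (S54), 9.53 (S56) and 9.85 (S57) against 10.13 to 11.06, a change of -1.19 ± 0.23 (adjusted p = 0.00179, limma). The probes parted elsewhere. Between the scanning periods the first changed by -0.85 (adjusted p = 3.05e-06) and the second by 0.53 (adjusted p = 0.0708, both limma), and in the Holstein controls against the cross-breed controls they changed by -0.94 and -1.62.

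**Figure D4:**
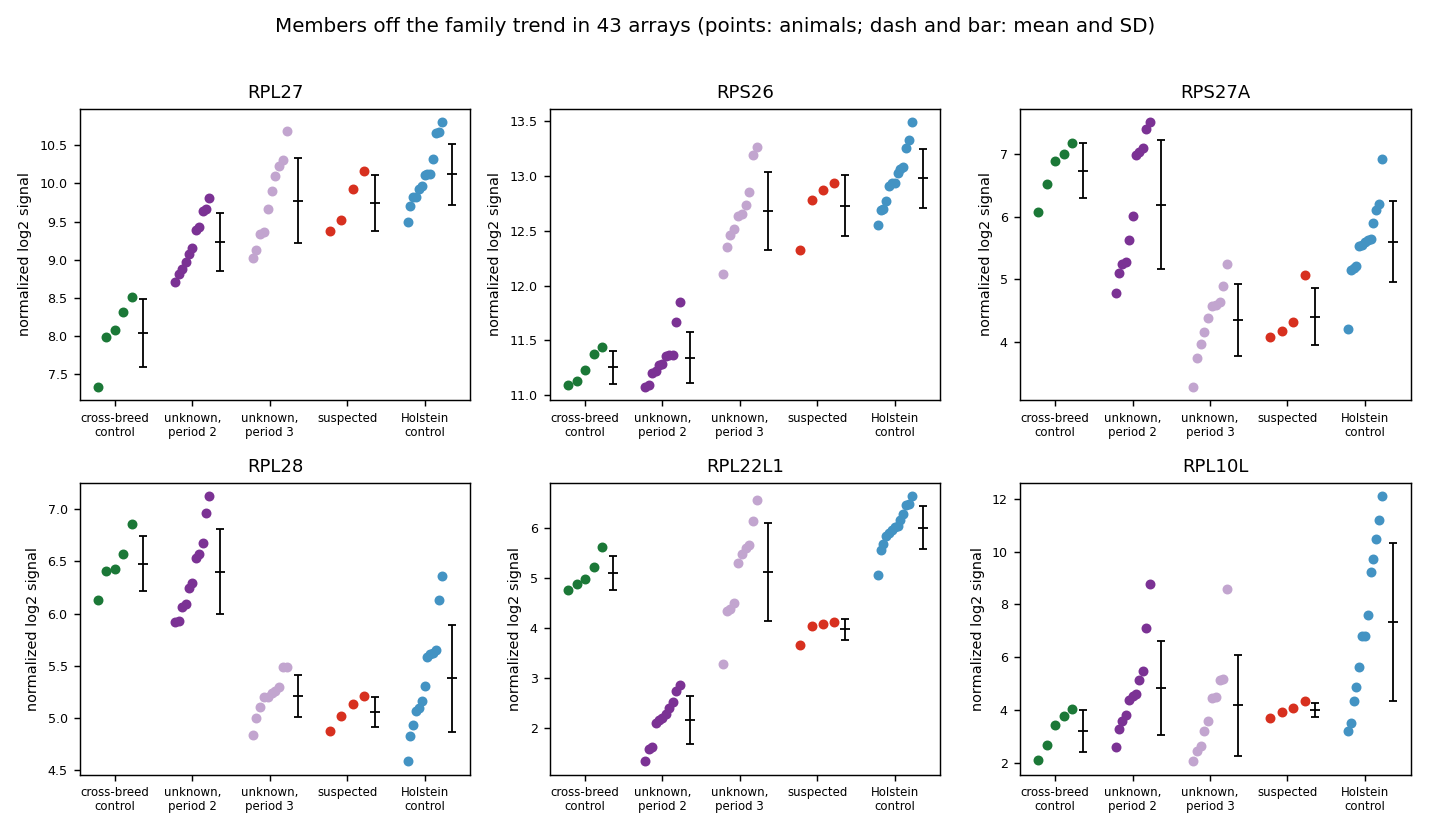
Normalized log2 signal of RPL27, RPS26, RPS27A, RPL28, RPL22L1 and RPL10L in each animal, by group (points, 1 animal each; dash and bar, mean and SD). The means of RPL27 and RPS26 are lowest in the cross-breed controls and in scanning period 2, where those of RPS27A and RPL28 are highest, and RPL10L runs from 3.22 to 12.10 within the Holstein controls.

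The Holstein controls against the cross-breed controls sets untreated animals of different breeds and experiments side by side. Here 12 members were called higher and 3 lower, or 13.5% and 3.37%, beside 10.9% and 9.69% of all probes tested. Without the 2-fold limit 47 were higher and 8 lower (52.8% and 8.99%), beside 23.9% and 24.4% of all probes, and the median change was 0.34 for members and 0.01 for all probes. The members' median was 0.64 with scaling to the 75th percentile, 0.19 with quantile normalization and 0.20 with loess on pairs. Without normalization it was -0.28 beside -1.04 for all probes, and 1 member was called higher and 12 lower (1.93% and 50.5% of all probes). RPL27 was at 9.49, 10.11 and 10.81 (lowest, median, highest) in the 13 Holstein animals, above every cross-breed control, and changed by 2.07 ± 0.21 (adjusted p = 6.32e-07, limma). RPS26 at 12.55, 12.94 and 13.49 was also apart from the cross-breed controls and changed by 1.73 ± 0.14 (adjusted p = 3.11e-08, limma). RPL34 changed by 1.53 ± 0.20 (adjusted p = 6.94e-06, limma), with no overlap, but was not called in a fit of all 43 arrays (adjusted p = 0.152). The other members higher were RPS29-like at 1.41, RPS21 at 1.39, RPL12 at 1.14, RPL36A at 1.098, RPS4X at 1.05, RPL26 at 1.01, RPS23 at 1.005, and the paralogs RPS27L and RPL10L.

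RPS27L, a paralog of RPS27 known as a target of the tumour suppressor p53, was at 12.45, 12.96 and 13.46 (lowest, median, highest) in the Holstein controls. The cross-breed controls were at 11.18 (K7), 11.12 (K8), 11.84 (K10), 11.17 (K11) and 11.15 (K12), all lower, and the change was 1.68 ± 0.17 (adjusted p = 5.9e-07, limma). RPL10L, a paralog of RPL10 known mainly from testis, had a change of 4.14 ± 1.28 (adjusted p = 0.0131, limma) that did not come from all animals. The Holstein controls ran from 3.22 (C44) to 12.10 (C20), with C47 at 11.20, C45 at 10.49 and a median of 6.82, while the cross-breed controls were at 4.06 (K7), 3.79 (K8), 2.09 (K10), 2.68 (K11) and 3.43 (K12), so the ranges overlapped. It was well above background in 11 of 13 Holstein and 1 of 5 cross-breed animals. Without normalization RPL34 (0.66), RPS26 (0.88), RPS27L (0.84) and RPL10L (2.81) were not called.

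The members lower in the Holstein controls were RPL15 by probe A_73_120021 (-1.62 ± 0.20, adjusted p = 3.64e-06, limma), RPS27A (-1.13 ± 0.30, adjusted p = 0.00495, limma) and RPL28 (-1.10 ± 0.24, adjusted p = 0.001, limma). Probe A_73_120021 of RPL15 ran from 8.57 to 9.67, below all cross-breed controls. RPS27A ran from 4.20 to 6.93 and RPL28 from 4.59 to 6.36, and both overlapped the cross-breed controls. RPS27A (-0.993 and -0.64) and RPL28 (-0.86 and -0.61) were not called with loess on pairs or with normexp, which left 1 member lower. RPL28 was not called with the series table (-0.90) either, nor RPS27A in a fit of all 43 arrays. The comparisons with the cross-breed controls all share the same 5 animals, so their changes are not independent of each other.

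The suspected animals and the Holstein controls were scanned in the same period but shared no slide or scan day. Slide, scan day and group therefore cannot be told apart here. Against the Holstein controls the suspected animals had 0 members called higher and 3 lower (3.37%), beside 8.4% and 9.41% of all probes tested. The median change was -0.13 for members and -0.05 for all probes, and its sign depended on the processing, since the members' median was 0.02 with quantile normalization, 0.07 with normexp and -0.38 with loess on pairs. RPL22L1 fell by 2.04 ± 0.22 on the log2 scale, from levels of 5.07 to 6.65 in the Holstein controls that did not overlap the suspected animals (adjusted p = 2.37e-06, limma). RPS27L fell by 1.099 ± 0.18 (adjusted p = 0.000166, limma), with the suspected animals at 12.10 (S21), 12.03 (S54), 11.61 (S56) and 11.74 (S57), all below the Holstein range, and by 0.65, under the 2-fold limit, with loess on pairs. RPS27A changed by -1.20 ± 0.33 (adjusted p = 0.0094, limma), and its levels overlapped. RPL22L1 and RPS27A were not called with the 75th percentile scaling or with normexp, which left 1 called member each. RPS27A was also not called without normalization (-0.64) or in a fit of all 43 arrays (adjusted p = 0.104).

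All 21 unknown animals against the cross-breed controls gave 3 members higher and 1 lower (3.37% and 1.12%), beside 5.21% and 5.23% of all probes tested (4.49% in either direction, beside 10.4%), and a median change of 0.16. That median was 0.09 with period 2 alone, 0.42 with period 3 alone, 0.05 with loess on pairs, 0.07 without the 5 animals of low control RNA signal, and -0.63 without normalization, where all probes stood at -0.74. RPL27 rose by 1.44 ± 0.26 (adjusted p = 0.000229, limma), from the control levels above to 8.71 to 9.81 in period 2 and 9.03 to 10.68 in period 3. The predicted RPS29-like copy rose by 1.32 ± 0.29 (adjusted p = 0.00181, limma), but was not called with quantile normalization (0.95), without normalization (0.50), with normexp (0.78) or with period 3 alone (0.95). RPL26L1, a paralog of RPL26, rose by 1.07 ± 0.17 (adjusted p = 7.66e-05, limma), with 9.49 to 9.83 in the controls, 10.76 to 11.36 in period 2 and 10.01 to 10.72 in period 3. With slide or scan day as a random block its change was 0.993 or 0.981, under the 2-fold limit, and RPS27A was called instead at -1.63 or -1.86, which made 2 members higher and 2 lower. RPL26L1 was also not called with loess on pairs (0.90), with normexp (0.98), with period 3 alone (0.77) or without normalization (0.26), where RPL27 (0.62) was not called either. RPL15 by probe A_73_120021 fell by 1.49 ± 0.29 (adjusted p = 0.000578, limma).

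In that comparison several members had wide spreads, with the scanning periods far apart. RPL34 had a change of -0.70 ± 0.99 (adjusted p = 0.653, limma) and RPL4 of -1.14 ± 0.62 (0.195). With the period 2 animals alone RPL4 changed by -2.45 and was called, as was RPL22L1, whose signal there was not well above background on any array. With the period 3 animals alone they changed by 0.30 and 0.03. The number of called members was 13 with period 2 alone (5 higher and 8 lower, with 15.5% of all probes called) and 10 with period 3 alone (6 and 4, with 23.3%).

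The suspected and unknown animals met on 2 slides, with 4 of each, which allows slide and group to be told apart. These unknown animals were 50, 78, 79 and 81. Among them are the arrays with the highest and lowest share of spots well above background, 97.29% (50) and 40.21% (79). No member was called, nor was any of the 16360 probes (0.0% called, limma), and at an unadjusted p under 0.05 there were 3 members, beside 11.4% of all probes. These were RPL10L (-0.81), RPL22 (0.75) and RPL7 (-0.41), of which the first was well above background in 3 of the 4 suspected animals. The median change of the members was -0.04, they ran from -0.81 to 0.75, and the median standard error was 0.16. The median was 0.23 with scaling to the 75th percentile and 0.17 without normalization, with all probes at -0.07 and -0.12. RPL34 differed by 0.00 ± 0.15 (adjusted p = 0.998, limma) and RPL4 by -0.04 ± 0.18 (adjusted p = 0.933, limma). Without animal 79 no member was called, but 0.055% of all probes were, all of them lower. Against all 10 unknown animals of period 3 no member was called either.

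**Figure D5:**
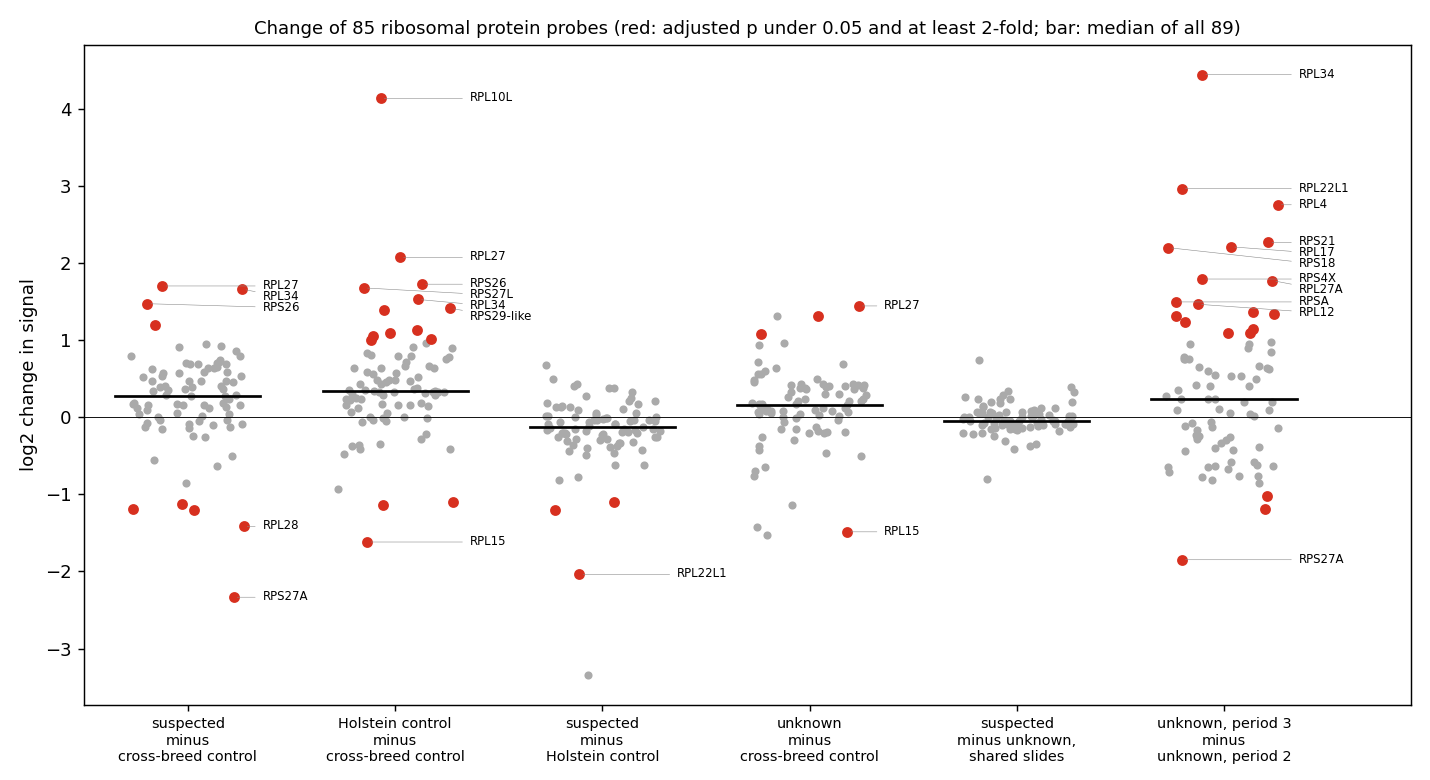
Log2 change of 85 of the 89 member probes (points) in 6 comparisons, with the median of all 89 (bar) and the called members in red. The widest spread is between the scanning periods of the unknown animals, where RPL34 reaches 4.44 and RPS27A -1.85, and no member is called between suspected and unknown animals on shared slides.

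How far each member kept to the family was described by the correlation of its 43 levels with the median profile of the other 88 probes. The points share the same arrays, so it is a description only. The median correlation was 0.59, the highest was 0.87 for RPL31, and 15 members were below 0. The lowest were RPL15 by probe A_73_118938 (-0.50), RPL28 (-0.50), and RPS15 and RPS27A (both -0.37). The second RPL15 probe stood at -0.19.

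The proteins of the large subunit's stalk, which recruits the GTP-hydrolysing factors, are RPLP0, RPLP1 and RPLP2. RPLP1 changed by 0.92 in the suspected animals against the cross-breed controls (adjusted p = 0.00127, limma) and by 0.97 between the scanning periods (adjusted p = 3.53e-08, limma). RPLP0 changed by 0.12 (adjusted p = 0.575) and 0.85 (adjusted p = 2.59e-07, both limma), and RPLP2 by 0.47 (adjusted p = 0.0253) and 0.09 (adjusted p = 0.497, both limma). RPS6, the small-subunit protein that ribosomal S6 kinase phosphorylates, changed by 0.01 (adjusted p = 0.981) and 0.42 (adjusted p = 0.000113, both limma). RPL3L, the form of RPL3 made in striated muscle, changed by 0.16 (adjusted p = 0.446, limma) in the suspected animals and by 0.95 between the periods (adjusted p = 2.85e-07, limma), where 13.43 to 14.03 in period 2 lay below 14.29 to 14.96 in period 3. These genes were named for their roles after their values were seen.

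Proteins of the mitochondrial ribosome, which translates the few genes of the mitochondrial genome, are the nearest other family, with 75 probes tested. In the suspected animals against the cross-breed controls 10 of them were called higher and 2 lower (14.4% and 13.8% of all probes), with a median change of 0.38, led by MRPS33 (3.12), MRPL13 (1.66), MRPS36 (1.45) and MRPS15 (1.37). Between the scanning periods 6 were higher and 3 lower (13.9% and 10.7% of all probes), with a median of 0.02, again led by MRPS33 (2.78) with MRPS16 (1.95). Against the cross-breed controls, the Holstein controls had 7 higher and 2 lower (10.9% and 9.69% of all probes). The unknown animals had 3 higher and 1 lower (5.21% and 5.23%). The suspected against the Holstein animals had 1 each way (8.4% and 9.41%).

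Other genes of the translation machinery were taken as lists, whose counts stand beside the shares of all probes given above for each comparison. Of 8 elongation factor probes, none was called in the suspected animals against the cross-breed controls (2 at any fold), EEF1G was called lower against the Holstein controls (-1.10), and EEF1A2, the muscle form of the factor that brings tRNA to the ribosome, lower in period 3 (-1.31). Of 44 initiation factor probes, 7 were lower and 0 higher in the suspected animals against the cross-breed controls (median -0.35), beside 13.8% and 14.4% of all probes, among them EIF2S3, the largest subunit of the factor that brings the initiator tRNA, by both its probes (-1.88 and -1.02), EIF4B, a helper of the helicase that unwinds mRNA (-1.52), and EIF2B1 (-1.44). In the Holstein controls 6 were lower and 0 higher, in the unknown animals 3 and 0, and in the suspected against the Holstein animals 1 and 1. Between the scanning periods 7 were lower, with EIF2B1 at -1.72, and 4 higher, with EIF3L at 2.27.

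Of 28 probes for ribosome assembly and rRNA synthesis, 5 were lower and 0 higher in the suspected animals against the cross-breed controls (median -0.28). They included RRN3, which brings RNA polymerase I to the rRNA genes (-1.52 by probe A_73_100974, and -0.40 by A_73_105090), POLR1C, a polymerase subunit (-1.49 by A_73_111651, and -0.19 by A_73_116218), BOP1 (-1.31) and BYSL (-1.12 by A_73_117406, and -0.53 by A_73_116300), both needed for subunit assembly. In the Holstein controls 7 were lower and 0 higher, led by RRN3 (-2.60 by A_73_100974) and the nucleolar GTPase GNL3 (-1.78). The unknown animals against the cross-breed controls had 1 lower and 0 higher. The suspected against the Holstein animals had 1 lower and 2 higher, and period 3 against period 2 had 2 lower and 1 higher. Of 17 probes for the mTOR arm, the suspected animals had 4 lower and 1 higher: DDIT4L (-2.04) and DDIT4 (-1.95), both inhibitors of mTOR complex 1, RHEB, its activator (-1.30), and PDPK1 (-1.36 by A_73_121162, and 0.12 by A_73_109358) were lower, and RICTOR, a part of the other mTOR complex, was higher (1.60). DDIT4L was also lower against the Holstein controls (-1.90) and in period 3 (-2.31), where TSC2, another inhibitor, was higher (1.74 by A_73_109985). Of 15 other TOP mRNAs, 1 was lower in the suspected animals (EIF4B), and 0 were called between the scanning periods, with a median of -0.28.

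Other genes moved with these groups. Of the 13 skeletal muscle marker probes, 2 were higher and 6 lower in the suspected animals against the cross-breed controls, the falls led by the fast-fibre genes MYH1 (-7.33 by A_73_117636, and -4.26 by A_73_102524), TNNC2 (-4.50) and MYLPF (-3.36). The summed linear signal of the list was 1141000 to 1471000 in the suspected animals, 966100 to 1772000 in the cross-breed controls, 1781000 to 2200000 in the Holstein controls, 596700 to 1082000 in period 2 and 794800 to 2250000 in period 3. Between the scanning periods 5 muscle probes were higher, with TNNT1, the slow-fibre troponin T, at 2.37 and ACTA1, skeletal actin, at 2.03, and 2 were lower, with TNNT3 at -2.54.

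Of 5 adipocyte probes, 4 were higher in the suspected animals and 4 in the Holstein controls against the cross-breed controls, led by FABP4, a fatty-acid carrier of fat cells (5.23 and 5.02), and 3 in the unknown animals. The summed signal of all 6 adipocyte probes on the array was 2303 to 4866 in the cross-breed controls, 10450 to 13940 in the suspected animals, 5186 to 15190 in the Holstein controls, 3928 to 21540 in period 2 and 6249 to 32020 in period 3, with LPL the brightest. Of 7 fibroblast probes 5 were lower in the suspected than in the Holstein animals, with COL3A1 at -3.29 and COL1A1 at -3.28, both chains of collagen, and the summed signal of all 9 fibroblast probes was 4180 to 13340 in the former and 24100 to 67600 in the latter. Against the cross-breed controls 4 of these probes were higher in the Holstein controls, 1 was higher and 3 lower in the suspected animals, and 2 were higher in the unknown animals. Of 5 endothelial probes 3 were higher in the suspected animals than in the cross-breed controls (TEK at 1.63, VWF at 1.54 and KDR at 1.06), with summed signals of 5960 to 11460 and 2637 to 5233, and 2 were higher than in the Holstein controls. Between the scanning periods 2 adipocyte probes were higher, 2 endothelial probes were higher and 1 lower, 1 leukocyte probe was higher, and no fibroblast probe was called. Of 8 leukocyte probes 1 was higher in the suspected animals against the cross-breed controls, the brightest was CD74, and the summed signal of all 10 was 2055 to 2303 and 1480 to 3242. HBB, a haemoglobin chain and the only erythroid probe tested, was higher by 1.01 there, with the sum of both erythroid probes at 35 to 54 and 21 to 39. Of 4 satellite cell probes MYOD1, a myogenic transcription factor, was lower (-1.75), and 2 were lower in the Holstein controls and 1 in the unknown animals against the same controls. The part of these genes in the changes of the ribosomal protein genes was not tested.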

How the data were processed

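Agilent bovine arrays were scanned and quantified by the authors with Feature Extraction, and the deposited intensity of a spot is its processed signal, background-subtracted and detrended within the array per the file headers, with no scaling between arrays. The series table of the same arrays was used as an alternative. Control spots and outlier-flagged spots were left out, log2 intensities of 42990 spots were normalized by cyclic loess over 43 arrays (span 0.7, 3 iterations), and the spots of a probe were averaged. Probes under 4 on at least 30 arrays were removed, leaving 16360 of 21475. Each comparison used only its own groups in limma (lmFit, eBayes) with Benjamini-Hochberg adjustment over all 16360 probes, and slide was a factor for suspected against unknown animals. Members were called when they changed at least 2-fold and the adjusted p was under 0.05. Tests were checked on simulated data. R 4.3.3, limma 3.58.1 and Python 3.11.15 were used. The precision is limited by the number of arrays. P-values measure the spread between animals of 1 set each.

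Symbols came from RefSeq by accession for 60 of the 89 probes and from the array's own annotation otherwise, and predicted genes carry the ending -like. No sequence or coordinate was used. The rule for named members took RPL34 and RPL4, up to 5 called members in each direction farthest from the family's median, those that moved 2-fold against it, the brightest, steadiest and least steady 3, genes whose probes disagree, and up to 4 called genes of each list. Some genes that the rule takes are not reported here, though counts and medians include them. The members and lists were chosen with earlier results of these data known, and the comparison of scanning periods (divided at gaps of over 45 days between scans) was added after the values were seen. Alternatives changed the normalization, background correction, dim-probe filter, samples and blocks.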

Additional observations from a re-analysis of the deposited data

Results flagged for a closer look

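In each group of 4 to 10 animals the highest and the lowest level of each named member were compared with the spread of the rest (Dixon's criterion). Of 48 such groups 5 held a level that stood apart, where chance gives about 1 in 20. Among the 4 suspected animals, S21 stood above the others for RPL15 by probe A_73_118938 (12.664) and S57 below the others for RPL22L1 (3.657). Among the 5 cross-breed controls, K10 stood above the others for RPS27L (11.836) and below them for the predicted RPS29-like copy (4.878). Among the 10 unknown animals of scanning period 3, animal 29 stood above the others for RPL10L (8.603).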

How the results depend on the processing

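Numbers of called members differed by over 1.5 times from those reported as follows. Suspected against cross-breed animals gave 20 (scaling to the 75th percentile), 17 (no normalization, all lower) and 18 (loess on pairs), where 9 were reported. Holstein against cross-breed controls gave 23 (75th percentile), where 15 were reported. Suspected against Holstein animals gave 1 (75th percentile), 6 (pairs) and 1 (normexp), where 3 were reported. Unknown against cross-breed animals gave 12 (no normalization, 0 higher and 12 lower, with 30.2% of all probes called), 2 (normexp, 1 each way, 5.01%), 13 and 10 (scanning period 2 or 3 alone, 15.5% and 23.3%) and 8 (without the 5 animals of low spike-in signal, 5 higher and 3 lower, 10.7%), where 4 were reported (3 higher and 1 lower), and with period 3 alone RPL4 (0.303) and RPL22L1 (0.03) changed sign. The settings by period and spike-in signal were chosen after seeing the data. The cause was not tested. All other totals, those between scanning periods included, stayed within 1.5 times, but their directions did not all do so. Without normalization the Holstein against the cross-breed controls gave 1 higher and 12 lower, where 12 and 3 were reported, and between scanning periods the 3 lower calls became 7 (quantile), 6 (without the animals of low spike-in signal) or 0 (normexp). The count for suspected against unknown animals stayed at 0. Leaving out 1 animal of the small groups gave 8 to 11, 14 to 16, 3, 4 to 5 and 0. No paired analysis was possible because the groups compared share no animal. Unknown treatment and dim signal limit what RPS27A, RPL28, RPL22L1 and RPL10L show.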
